A study of Mus musculus with 2 samples.

Results

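The genes described are 9 components of the inhibitory signalling of myeloid cells: the receptor Sirpa and its ligand Cd47, the receptors Cd300a, Cd300lf, Siglece and Clec12a, and the phosphatases Ptpn6 (SHP-1), Ptpn11 (SHP-2) and Inpp5d (SHIP1). They were taken by gene symbol from the 55536 annotated genes measured, and all 9 were found. The data are total RNA-seq libraries, depleted of ribosomal RNA, from the nuclear RNA of mouse macrophages grown from the bone marrow of C57BL/6J animals. The cells were treated with Lipid A, a bacterial glycolipid sensed through TLR4, at 100 ng/ml for 12 h, kept without it for 12 h, and treated again at 100 ng/ml for 60 min. All libraries belong to this 1 group of 2 biological replicates, so no treated and untreated cells could be compared, and each value describes restimulated cells only. Replicate 1 started from 1 µg of RNA and replicate 2 from 500 ng. One label field calls the preparation nuclear and another nucleoplasmic. Age and sex were not collected. The labels give both replicates the same donor identifier and no label assigns them to different animals, so their spread may be partly technical.

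Inhibitory receptors carry tyrosines in short cytoplasmic motifs, the ITIM and the related ITSM. Src family kinases phosphorylate these tyrosines when the receptor is engaged, and the phosphorylated motifs recruit phosphatases that have SH2 domains. SHP-1 and SHP-2 remove phosphate from proteins, whereas SHIP1 removes the 5-phosphate from the phosphoinositide that PI3 kinase makes. On macrophages SIRPA is best known as the receptor for CD47, the "do not eat me" signal on other cells. Siglec-E binds sialic acids, CLEC12A binds crystals of uric acid, and the CD300 receptors bind lipids such as those exposed on dying cells.

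The motifs are what couples these receptors to the phosphatases, so their coding sequences are given first. They were read in frame from the GENCODE M21 coding sequences (mm10), 5′ to 3′, as the 6 codons of each motif, with the codon of the central tyrosine in capitals. The number in each name is that codon, counted from 1 at the start codon. The ITIM pattern searched was I, L, V or S, then any residue, Y, any 2 residues, and I, L or V. The ITSM pattern was T, any residue, Y, any 2 residues, and I or V.
Sirpa-201 ITIM 440: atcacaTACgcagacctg
Sirpa-201 ITSM 464: acagaaTATgcaagcatt
Sirpa-201 ITIM 481: ctcaccTATgctgacctg
Sirpa-201 ITIM 505: tcagagTATgctagtgtc
Cd300a-202 ITIM 262: gtggaaTATagcacattg
Cd300a-202 ITIM 274: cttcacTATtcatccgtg
Cd300lf-202 ITIM 241: ctctgtTATgcagacctg
Cd300lf-202 ITIM 289: gtttcaTATgccgctctg
Cd300lf-202 ITSM 325: acagagTACagcagcatc
Siglece-201 ITIM 432: atacatTATgcgaccctc
Siglece-201 ITSM 455: acggagTACtcagagata
Clec12a-201 ITIM 7: attgttTATgcaaatctc

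In Sirpa, Cd300a, Cd300lf and Siglece these windows lay near the end of the coding sequence, after the transmembrane segment. In Clec12a the window shown lay at codon 7 of 267, since this lectin is a type II protein whose cytoplasmic tail comes first. Windows elsewhere in the Cd300a and Clec12a coding sequences are not shown. Cd47, the ligand, and Inpp5d held no ITIM window, whereas the phosphatases Ptpn6 and Ptpn11 each held 1, at codon 538 of Ptpn6-201 and codon 551 of Ptpn11-201. The pattern is loose: 10567 of 21511 mouse genes with a complete coding sequence (49.1%) held at least 1 ITIM window, 16.8% held 1 within the last 100 codons, and 3.90% held 2 or more there. An ITSM window occurred in 7.95% of these genes. A match describes the sequence and is not evidence that the site is used.

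Levels are given in TPM (transcript abundance per fixed library total), a quantity corrected for transcript length, as deposited by the authors, replicate 1 before replicate 2. Depth was 23630328 and 15687634 expected counts on annotated genes. In both libraries all 9 genes reached 1 TPM, as did 8773 of the 22015 nuclear protein-coding genes (39.9%). At 10 TPM in both libraries there were 8 of 9, against 14.8% of those genes, and at 100 TPM only Sirpa, against 1.37%. The 9 genes held 139315 and 72165 expected counts, or 0.590% and 0.460% of all counts on genes, and Sirpa alone held 72.3% and 71.7% of these. In such bulk RNA, fewer cells with a transcript and less transcript per cell cannot be told apart.

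**Figure D1:**
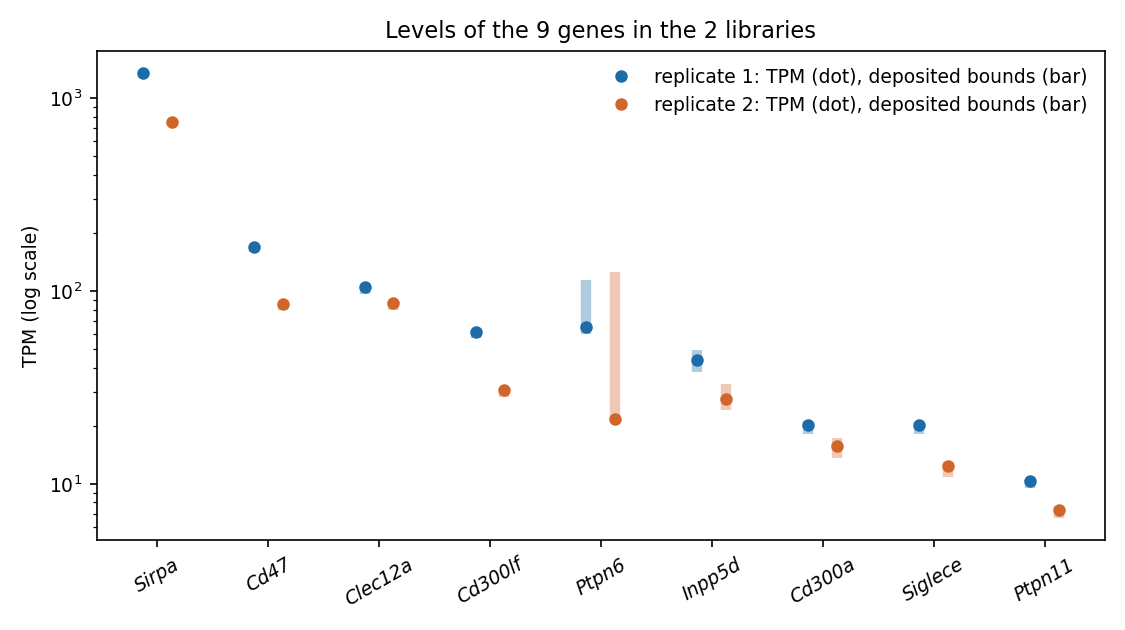
Level of each of the 9 genes in TPM on a log axis, with 1 dot per library and a bar for the bounds deposited with the value. Sirpa, at 1348 and 753.7 TPM, lies above all others in both libraries, and Ptpn11, at 10.3 and 7.31 TPM, lies below all others.

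Sirpa (ENSMUSG00000037902.18), on mm10 chromosome 2 from 129592835 to 129632228 on the plus strand, was measured at 1348 TPM in replicate 1 and 753.7 TPM in replicate 2, a mean of 1051 ± 420 TPM (SD, n = 2). It ranked 18 and 17 among the nuclear protein-coding genes. Its ligand Cd47 (ENSMUSG00000055447.19), on chromosome 16 from 49800533 to 49915010 on the plus strand, was measured at 169 and 85.3 TPM, a mean of 127 ± 59.0 TPM (SD, n = 2). The receptor therefore exceeded the ligand in both libraries, with no overlap of their values. Within a library, where scaling between libraries does not enter, Sirpa was 7.99-fold above Cd47 in replicate 1 and 8.84-fold in replicate 2. The log2 ratio was 3.07 ± 0.10 (SD, n = 2). With 2 libraries, no two-sided exact test can give a p under 0.5, so these ratios are given with their spread and no test.

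Clec12a (ENSMUSG00000053063.11), a C-type lectin on chromosome 6 from 129342691 to 129365303 on the plus strand, was measured at 104 and 86.1 TPM, a mean of 95.3 ± 12.9 TPM (SD, n = 2). On the TPM scale its libraries lay closest together, in proportion to the mean, of all 9 genes. That ranking depended on the scale, as TPM ran higher in replicate 1 over expressed nuclear protein-coding genes (median log2 ratio 0.47). Less that median, the Clec12a log2 ratio was -0.19, and only Ptpn11 (0.03) and Cd300a (-0.11) lay closer to their libraries' median. In a second quantifier, made directly from the reads, Clec12a was at 37.2 and 52.4 TPM. Siglece (ENSMUSG00000030474.9), the sialic acid receptor on chromosome 7 from 43651070 to 43660161 on the minus strand, was measured at 20.2 and 12.3 TPM, a mean of 16.3 ± 5.57 TPM (SD, n = 2). Clec12a was 5.16-fold and 6.98-fold above Siglece, a log2 ratio of 2.58 ± 0.30 (SD, n = 2).

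The CD300 genes neighbour each other on chromosome 11. Cd300a (ENSMUSG00000034652.12) lies from 114890041 to 114904654 on the plus strand and was measured at 20.2 and 15.7 TPM, a mean of 17.9 ± 3.17 TPM (SD, n = 2). Cd300lf (ENSMUSG00000047798.15) lies from 115116214 to 115133992 on the minus strand and was measured at 61.1 and 30.8 TPM, a mean of 46.0 ± 21.5 TPM (SD, n = 2). Cd300a was the lower of the pair in both libraries, and the values did not overlap. The log2 ratio of Cd300a over Cd300lf was -1.60 in replicate 1 and -0.97 in replicate 2, a mean of -1.28 ± 0.44 (SD, n = 2).

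Among the phosphatases, Inpp5d (ENSMUSG00000026288.14) lies on chromosome 1 from 87620312 to 87720507 on the plus strand and was measured at 44.0 and 27.6 TPM, a mean of 35.8 ± 11.6 TPM (SD, n = 2). Ptpn11 (ENSMUSG00000043733.14), the phosphatase found in nearly all tissues, lies on chromosome 5 from 121130533 to 121191397 on the minus strand. It was measured at 10.3 and 7.31 TPM, a mean of 8.82 ± 2.13 TPM (SD, n = 2), and no other of the 9 genes was lower. Ptpn6 (ENSMUSG00000004266.15), which is largely confined to blood cells and epithelia, lies on chromosome 6 from 124720707 to 124738714 on the minus strand. It was measured at 64.9 and 21.6 TPM, a mean of 43.2 ± 30.7 TPM (SD, n = 2), the widest spread of the 9 in proportion to its mean.

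Ptpn6 exceeded Ptpn11 in both libraries, 6.29-fold in replicate 1 and 2.95-fold in replicate 2, a log2 ratio of 2.09 ± 0.77 (SD, n = 2). On the posterior mean and in the second quantifier, made directly from the reads, that log2 ratio averaged 2.999 and 2.91. By point TPM, Inpp5d and Ptpn6 changed places between the libraries. The log2 ratio of Inpp5d over Ptpn6 was -0.56 in replicate 1 and 0.36 in replicate 2, a mean of -0.10 ± 0.65 (SD, n = 2). By the posterior mean (mean log2 ratio -0.96) and by the second quantifier (-0.64), Inpp5d was below Ptpn6 in both libraries. In replicate 2 this rested on the shortest 2 annotated Ptpn6 transcripts, which held no expected count. They made up 33.4 of the 58.0 TPM of the Ptpn6 posterior mean, against 28.4 TPM for Inpp5d. By the second quantifier they made up 5.64 of 21.9 TPM, against 18.2 TPM for Inpp5d. Without them Inpp5d was above Ptpn6 in replicate 2 on both measures. Inpp5d was above Inppl1, the gene of the related phosphatase SHIP2, 2.34-fold and 2.74-fold, a log2 ratio of 1.33 ± 0.16 (SD, n = 2).

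The Ptpn6 level was the least certain. The interval deposited with the gene table, whose level is not stated, ran from 59.6 to 114 TPM in replicate 1 and from 21.7 to 126 TPM in replicate 2. The point value of replicate 2 lay just below its own interval. A point value outside its interval was not particular to Ptpn6. Those of Sirpa and Cd47 lay above theirs in both libraries, and that of Clec12a in replicate 1. The upper bounds were 1307 and 733 TPM for Sirpa, and 166 and 84.3 TPM for Cd47. The posterior mean of Ptpn6 in the same tables was 80.9 and 58.0 TPM, 69.5 ± 16.2 TPM (SD, n = 2). The shortest 2 annotated Ptpn6 transcripts, which held no expected count in either library, had summed posterior means of 15.5 and 33.4 TPM. For reads counted directly, a count of 0 allows up to 3 counts in each library. Reads are here divided between transcripts by estimation, so that bound need not hold. By the second quantifier the shorter of these 2 transcripts held 13 counts in replicate 1 and 6 in replicate 2, above the bound in both. Together the 2 transcripts made up 22.7% and 25.7% of Ptpn6 TPM by that quantifier.

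By mean TPM the order was Sirpa, Cd47, Clec12a, Cd300lf, Ptpn6, Inpp5d, Cd300a, Siglece and Ptpn11. Of the 8 pairs of neighbours in this order, 4 did not overlap: Sirpa above Cd47, Clec12a above Cd300lf, Inpp5d above Cd300a, and Siglece above Ptpn11. The other 4 changed places between the libraries: Cd47 and Clec12a, Cd300lf and Ptpn6, Ptpn6 and Inpp5d, and Cd300a and Siglece.

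**Figure D2:**
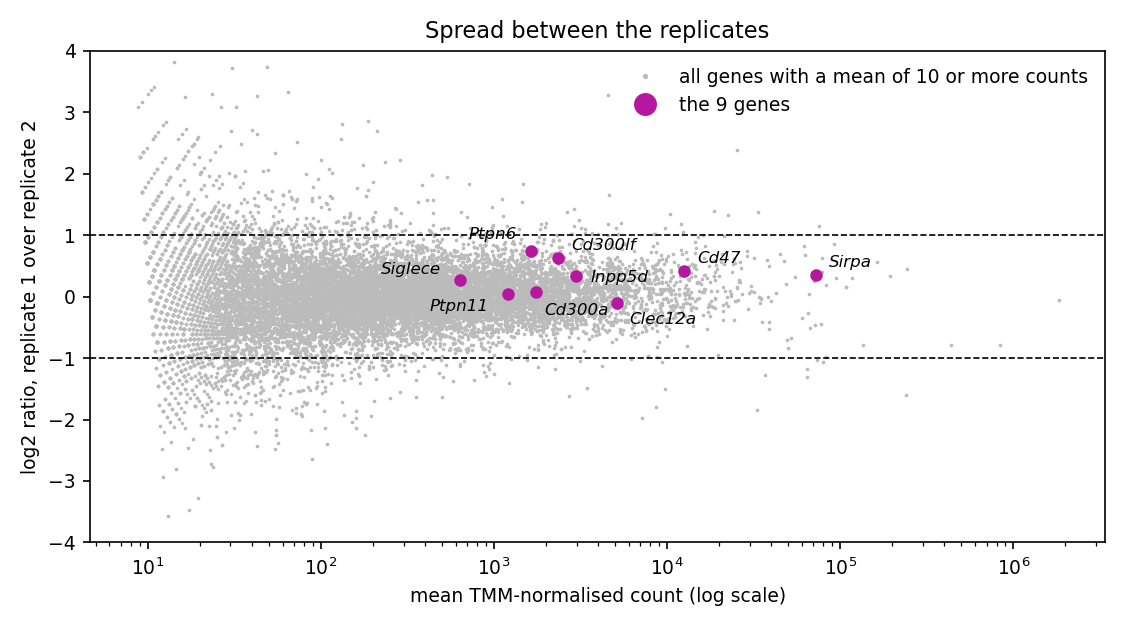
Log2 ratio of TMM-normalised expected counts, replicate 1 over replicate 2, against mean level for 14052 genes, with the 9 genes marked and lines at a 2-fold difference; 41 genes lie outside the plotted range of -4 to 4. The 9 genes lie between -0.11 (Clec12a) and 0.74 (Ptpn6), inside the lines.

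The replicates were compared after TMM normalisation of the expected counts, which corrects for depth and composition. Of 14052 genes whose counts averaged at least 10, 1207 (8.59%) were over 2-fold apart, and 0 of the 9 genes were. The count of members was also 0 with DESeq2 size factors (8.63% of all genes tested), without the filter on low counts (22.1%), with neither a prior count nor rounding (8.96%) and with the counts of the second quantifier (11.8%). The log2 ratio of replicate 1 over replicate 2 was 0.35 for Sirpa, 0.41 for Cd47, 0.62 for Cd300lf, 0.74 for Ptpn6, 0.33 for Inpp5d and 0.27 for Siglece. It was 0.07 for Cd300a, 0.04 for Ptpn11 and -0.11 for Clec12a. The median of the 9 was 0.33, against 0.03 over the 8773 nuclear protein-coding genes of 1 TPM or more. On the TPM scale that wider median was 0.47. Nuclear protein-coding genes held 28.1% of TPM in replicate 1 and 18.8% in replicate 2, while the small nuclear RNA gene Rn7sk was listed at 226393 and 314711 TPM. On TPM without centring, 1 of the 9 genes, Ptpn6, was over 2-fold apart (log2 ratio 1.59), against 16.2% of all genes tested.

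**Figure D3:**
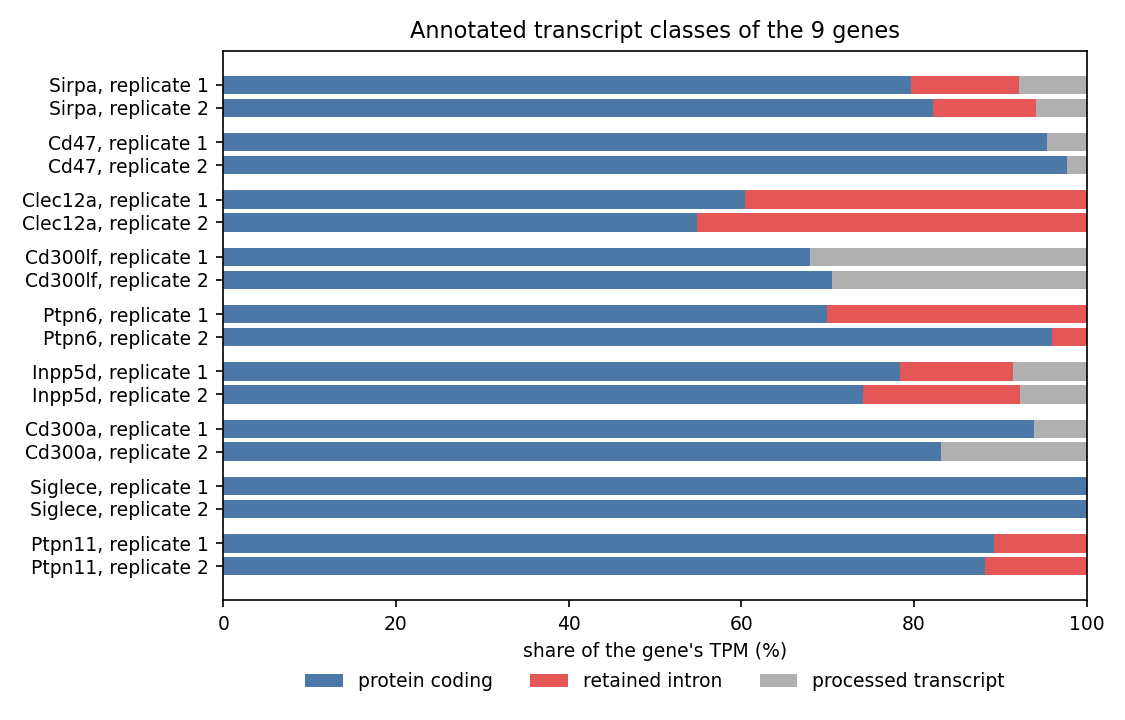
Share of each gene's TPM on transcripts annotated as protein coding, retained intron or processed transcript, with 1 bar per library. Clec12a has the largest retained-intron share, 39.5% and 45.1%, and Siglece, Cd300a, Cd300lf and Cd47 have no annotated retained-intron transcript.

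Nuclear RNA includes transcripts that are not fully spliced, and the annotation holds some of these as retained-intron transcripts. They held 10% or more of TPM in both libraries for 4 of the 9 genes, Sirpa, Ptpn11, Inpp5d and Clec12a, against 43.0% of the 8773 expressed nuclear protein-coding genes. Clec12a stood highest, with 39.5% and 45.1% of TPM, a mean of 42.3 ± 3.97% (SD, n = 2). By expected counts its share was 37.4% (36.2 to 38.6, 95% Wilson interval) for replicate 1 and 40.6% (39.1 to 42.0) for replicate 2. Such intervals cover counting error only.

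The retained-intron share was 12.5% and 11.9% of TPM for Sirpa, 13.0% and 18.2% for Inpp5d, and 10.7% and 11.8% for Ptpn11. For Sirpa and Inpp5d these shares rested on short transcripts that drew few counts: 1.91% and 1.73% of the Sirpa counts, and 0.585% and 0.798% of the Inpp5d counts. Ptpn6 had 30.03% of TPM there in replicate 1 but 3.99% in replicate 2, so its libraries did not resemble each other. These shares also rested on short transcripts with few counts, 106 of 2517 and 4 of 986. By the second quantifier they were 39.9% and 20.5%. Over the 5643 expressed genes with an annotated retained-intron transcript, the median share was 22.0% of TPM.

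Cd300lf has no annotated retained-intron transcript, but its transcripts of the class processed transcript held 32.1% and 29.6% of TPM and 50.2% and 44.6% of expected counts. Most of this was Cd300lf-206, at 29.2% and 24.2% of TPM and 49.7% and 43.6% of expected counts. This transcript of 3929 bases reads through an intron that all 3 coding transcripts splice out, and its 3′ end lies in another. Siglece has 2 annotated transcripts, both coding, so the annotation alone placed all of its TPM on coding transcripts.

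**Figure D4:**
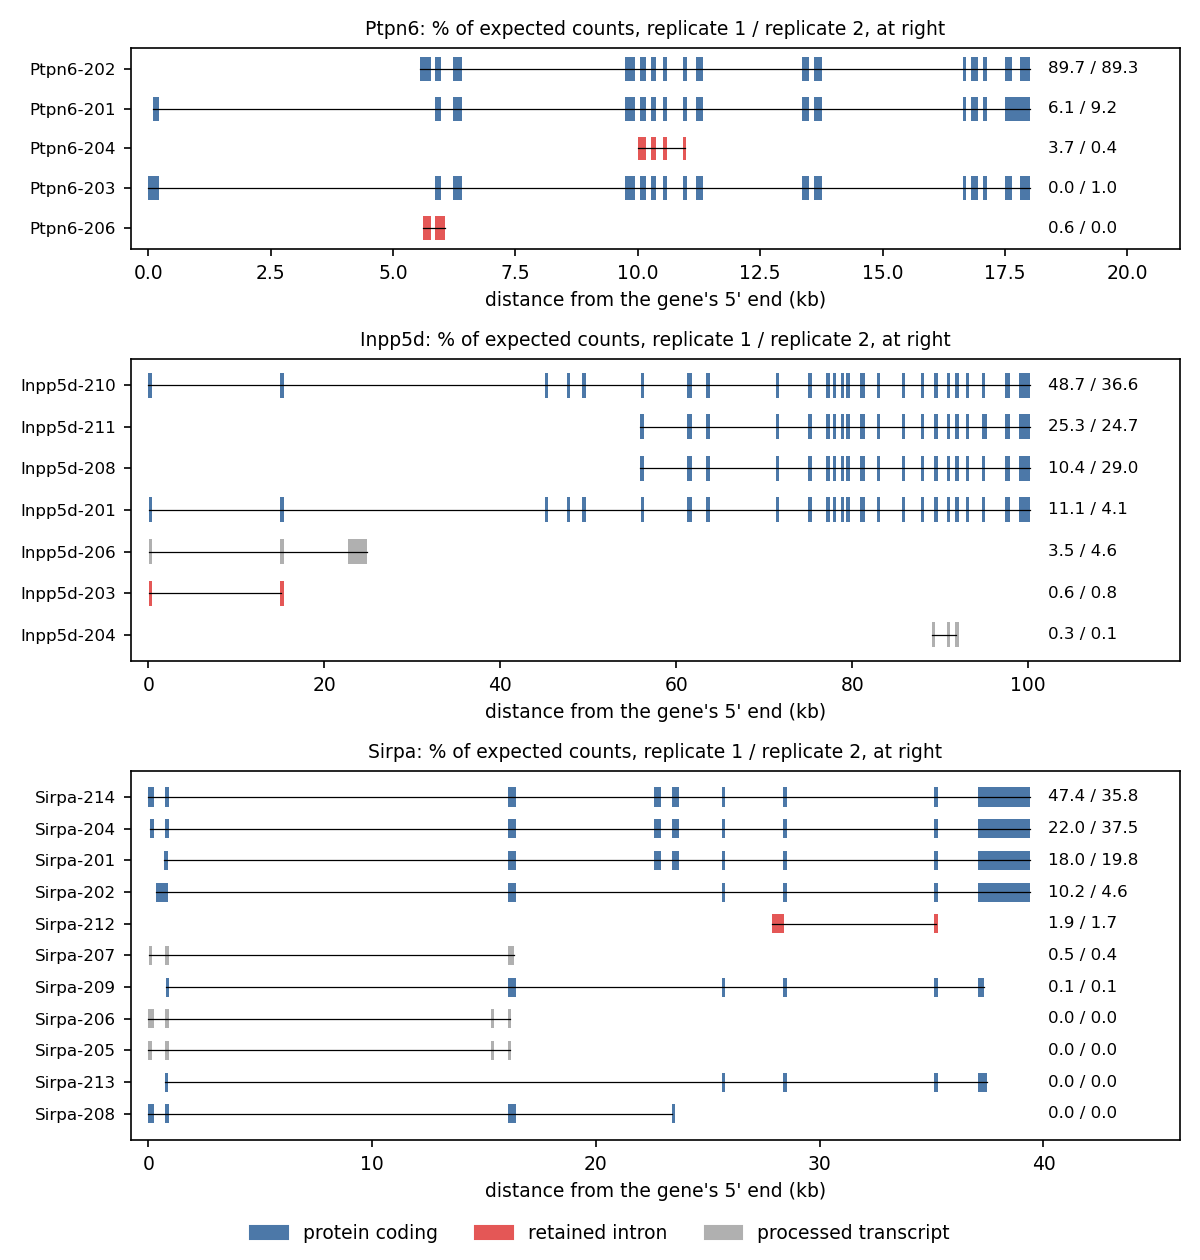
Exons of the Ptpn6, Inpp5d and Sirpa transcripts drawn to scale against distance from the 5′ end of each gene in kilobases. Transcripts with no expected count in either library are not drawn. The transcripts differ in the first exon of Ptpn6, in the start of Inpp5d and in internal exons of Sirpa.

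Ptpn6 has 2 groups of first exons. In human PTPN6 the upstream promoter is the epithelial one and the downstream promoter the haematopoietic one. In these macrophages the transcript with the downstream first exon, Ptpn6-202, held 89.7% (88.5 to 90.8, Wilson) of Ptpn6 counts in the first library and 89.4% (87.3 to 91.1) in the second. Transcripts with the upstream first exon held 6.12% (5.25 to 7.12) and 10.2% (8.50 to 12.3). By TPM in place of these counts, the downstream transcript held 65.7% and 86.5% and the upstream ones 4.28% and 9.51%. By the second quantifier the downstream transcript held 34.4% and 47.2% of TPM and the upstream ones 2.99% and 6.55%. In the counts of that quantifier, the downstream transcript held 2461 of 2984 and 1318 of 1574. The downstream form led in both libraries on each measure. The first 45 coding bases of each form are shown because the first exon sets the first residues of the protein. Capitals mark the bases ahead of the coding sequence that both forms share, which need not end at the exon boundary.
Ptpn6-201 upstream: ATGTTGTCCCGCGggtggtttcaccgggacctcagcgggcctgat
Ptpn6-202 downstream: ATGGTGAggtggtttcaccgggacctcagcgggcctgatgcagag

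Inpp5d also has transcripts that begin inside the gene. The longest of these, Inpp5d-208, has 928 codons, all shared with the 1191 codons of Inpp5d-210, which has 263 more at its start. The missing codons include those of the SH2 domain, by which SHIP1 binds phosphorylated receptors, and a form of this kind is known as s-SHIP. The internal-start transcripts held 35.8% of counts in replicate 1 (34.3 to 37.2) and 53.7% in replicate 2 (51.5 to 55.8). The coding transcripts from the full-length start held 59.8% (58.3 to 61.3) and 40.8% (38.7 to 42.9). By expected counts the larger group was therefore the full-length one in replicate 1 and the internal one in replicate 2. No order held over both libraries on this measure. By the second quantifier the internal-start transcripts held 19.4% and 30.17% of TPM, and the full-length coding ones 37.6% and 30.15%. In its replicate 2 counts, Inpp5d-210 held 1442, and the internal-start Inpp5d-208 and Inpp5d-211 held 648 and 674. The reversal in replicate 2 was thus not seen in those counts. Reads in the shared exons are divided between the forms by estimation, and counts from unspliced RNA of the intron before the internal start were not separated.

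Sirpa transcripts with both of a pair of internal exons, which encode extracellular immunoglobulin domains, held 87.3% of counts in replicate 1 (87.1 to 87.5) and 93.1% in replicate 2 (92.9 to 93.4). Transcripts without them held 10.2% (10.04 to 10.4) and 4.74% (4.56 to 4.93). By TPM the transcripts with both exons held 70.2% and 77.3%, and those without them 9.46% and 4.84%. By the second quantifier these shares of TPM were 55.4% and 59.9% with both, and 8.93% and 7.09% without. The form with more immunoglobulin domains led in both libraries. Sirpa also has a choice of splice donor that adds 12 bases, and the longer exon was in transcripts with 28.1% and 24.4% of counts, the shorter in transcripts with 69.4% and 73.5%. By TPM the longer was in 24.1% and 21.1% and the shorter in 55.6% and 61.1%. By the second quantifier the longer was in 16.9% and 14.9% of TPM and the shorter in 49.4% and 54.4%. The junction is shown with the added bases in capitals.
Sirpa-201 long donor: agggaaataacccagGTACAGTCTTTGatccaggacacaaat
Sirpa-204 short donor: agggaaataacccagatccaggacacaaat

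The largest Cd47 transcript was Cd47-201, with 74.1% and 82.6% of TPM and 93.4% and 96.0% of expected counts. By the second quantifier it held less, 53.8% and 63.8% of TPM. Transcripts with an added exon before the last, where the cytoplasmic tail is encoded, held 19.6% and 14.9% of TPM but 4.95% and 3.37% of expected counts. Ptpn11 coding transcripts differ by 4 codons. Ptpn11-202, of 593 codons, held 63.6% and 78.9% of TPM, against 25.7% and 9.35% for Ptpn11-201, of 597 codons. The shorter form led in both libraries.

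**Figure D5:**
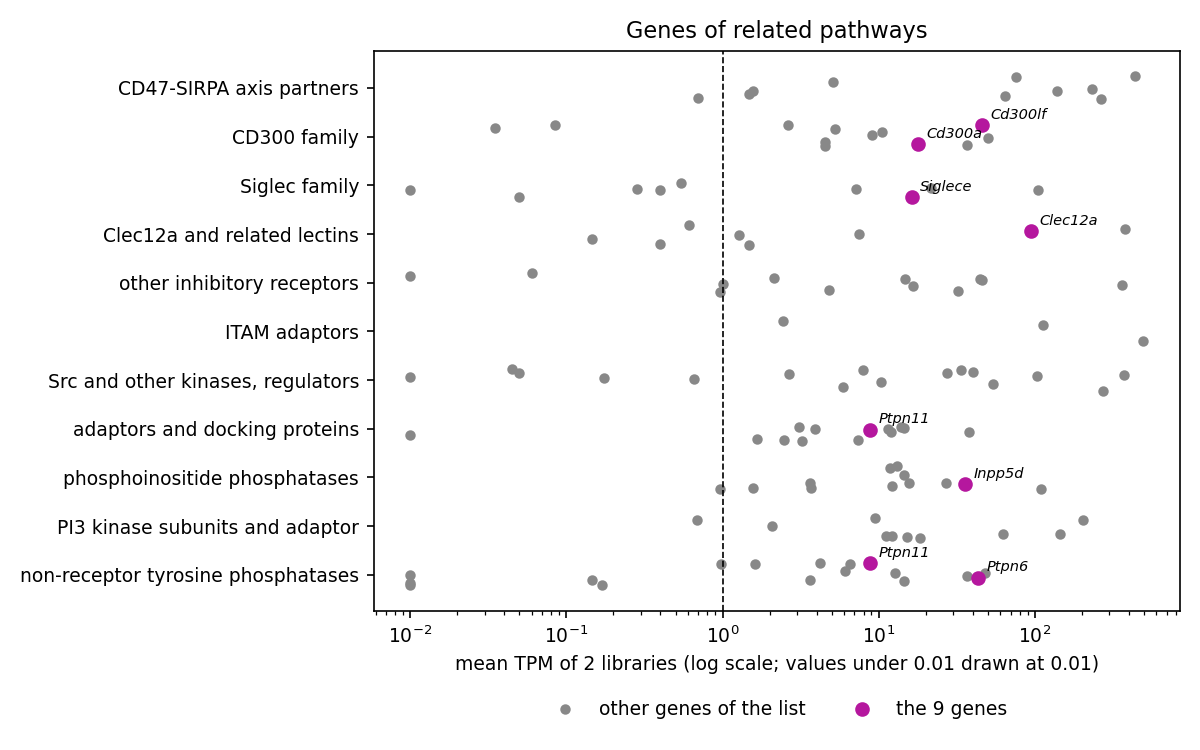
Mean level in TPM, on a log axis, of every gene in the 11 pathway lists, 1 row of points per list, with a line at 1 TPM. Sirpa and Cd47 are in no list, and the 7 other genes described are drawn larger; they lie between Ptpn11 at 8.82 TPM and Clec12a at 95.3 TPM.

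The genes around these members were taken from 11 lists, which hold 114 genes other than the 9. Of these, 82 reached 1 TPM in both libraries, against 39.9% of nuclear protein-coding genes. The lists were drawn up for macrophages with earlier results of these data known, and no test was made of them.

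Among 10 partners of the CD47 and SIRPA axis, 7 reached 1 TPM. The highest were Fyb, an adaptor, at 440 ± 110 TPM, Lrp1, a receptor for the "eat me" signal calreticulin, at 266 ± 55.2 TPM, Calr, calreticulin itself, at 234 ± 47.5 TPM, and Thbs1, thrombospondin 1, a soluble CD47 ligand, at 140 ± 70.1 TPM (each SD, n = 2). Each lay below Sirpa in both libraries. The related genes Sirpb1a, Sirpb1b and Sirpb1c had means of 0.70, 1.57 and 1.48 TPM. Counts shared between such similar genes are uncertain.

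In the CD300 family 10 of 12 genes reached 1 TPM. Cd300ld3 was highest at 50.0 ± 19.6 TPM, next to Cd300lf, with Cd300c2 at 36.6 ± 19.6 TPM (SD, n = 2). Cd300lg was below 0.1 TPM in both libraries. In the Siglec family 4 of 9 did: Siglec1, the sialoadhesin of macrophages, at 105 ± 68.6 TPM, Cd33 at 21.5 ± 2.87 TPM, Siglece, and Cd22 at 7.14 ± 4.75 TPM (SD, n = 2). Siglecf and Siglec15 were below 0.1 TPM. Siglece therefore lay below Siglec1 in both libraries, and its values overlapped those of Cd33.

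Of 8 lectins related to Clec12a, counting Clec12a, 4 reached 1 TPM. Clec2d was above Clec12a in both libraries, at 376 ± 55.5 TPM, while Clec7a, the beta-glucan receptor dectin-1, was at 7.67 and 7.32 TPM and Olr1 at a mean of 1.48 ± 0.99 TPM (SD, n = 2). Of 12 other inhibitory receptors, some of which act without an ITIM, 8 reached 1 TPM. Fcgr2b, the inhibitory Fc receptor, led at 362 ± 79.1 TPM, followed by Cd72 at 46.2 ± 23.5 TPM, Lair1 at 44.9 ± 17.5 TPM and Vsir at 32.2 ± 13.4 TPM (SD, n = 2). Pdcd1, the gene of PD-1, was listed at 0 in both libraries. Sirpa was above all of these receptors in both libraries.

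All 3 ITAM adaptors, which serve activating receptors, reached 1 TPM, with Fcer1g at 494 ± 90.5 TPM, Tyrobp at 112 ± 44.6 TPM and Hcst at 2.44 ± 0.08 TPM (SD, n = 2). Of 16 genes of Src family and other tyrosine kinases and their regulators, 11 did. These included the phosphatase gene Ptprc, which encodes CD45, at 374 ± 56.6 TPM, the kinase genes Syk at 274 ± 49.8 TPM and Lyn at 104 ± 46.6 TPM, and the ubiquitin ligase gene Cbl at 54.1 ± 15.1 TPM (SD, n = 2). Yes1 and Zap70 were below 0.1 TPM. Of 13 adaptors and docking genes, counting Ptpn11, 12 did, led by Grb2 at 38.2 ± 13.9 TPM (SD, n = 2), with Frs2 and Dok1 at means of 14.6 and 12.0 TPM and Gab2 at 15.98 and 12.01 TPM in the libraries. Irs1 was below 0.1 TPM.

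Of 17 non-receptor tyrosine phosphatase genes, 11 reached 1 TPM. By point TPM, Ptpn6 was second to Ptpn23 (47.8 ± 7.52 TPM) by mean, and above it in replicate 1 only. By the posterior mean Ptpn6 was above Ptpn23 in both libraries, at 80.9 and 58.0 TPM against 51.2 and 41.0 TPM. Of the 58.0 TPM in replicate 2, 33.4 TPM lay on the shortest 2 Ptpn6 transcripts. By the second quantifier Ptpn1, at 36.2 and 44.2 TPM, was above Ptpn6, at 36.0 and 21.9 TPM, in both libraries. By point TPM, Ptpn1 was at 36.6 ± 13.6 TPM and Ptpn12 at 14.6 ± 1.42 TPM (SD, n = 2), whereas Ptpn13, Ptpn14 and Ptpn20 were below 0.1 TPM. Of 12 phosphoinositide phosphatase genes, 11 reached 1 TPM. Synj1 was above Inpp5d, at 109 ± 51.8 TPM, and Inpp4a, which removes the 4-phosphate, was below it in both libraries, at 26.8 ± 9.19 TPM (SD, n = 2). Of 10 genes of class I PI3 kinase subunits and an adaptor of the kinase, 9 did. Pik3ap1, which encodes that adaptor, was highest at 203 ± 79.9 TPM, then Pik3r5 at 145 ± 24.2 TPM, Pik3r1 at 62.3 ± 13.0 TPM and Pik3cd at 18.4 ± 12.2 TPM (SD, n = 2).

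The cell label was checked against 7 marker lists. All 10 macrophage markers reached 1 TPM in both libraries, with summed levels of 4427 and 2658 TPM. No marker of neutrophils (0 of 10, sums 2.42 and 0.80 TPM), of B, T and NK cells (0 of 10, sums 0.15 and 0.11 TPM) or of mast cells and basophils (0 of 7, sums 0.95 and 0.67 TPM) did. Among dendritic markers Ccr9 did (1 of 7, sums 3.10 and 2.19 TPM), among erythroid and megakaryocyte markers Pf4 (1 of 7, sums 25.2 and 18.3 TPM), and among stromal and endothelial markers Kdr (1 of 7, sums 14.4 and 4.69 TPM). Elane, Gzma, Tpsb2 and Cd209a were at 0 in both libraries. Any part of these cells in the values above was not tested.

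The nuclear protein-coding gene whose pair of levels lay nearest to each member was found by Euclidean distance on log2(TPM + 0.1) over the 2 libraries. It was Grn for Sirpa (distance 0.154), Daxx for Cd47 (0.031), Gramd1a for Clec12a (0.044), Ehbp1l1 for Cd300lf (0.034), Tlr9 for Ptpn6 (0.065), Zc3h12a for Inpp5d (0.009), Man2c1 for Cd300a (0.004), Sec14l1 for Siglece (0.011) and Dag1 for Ptpn11 (0.010). No gene lay within 0.1 of Sirpa, whereas 59 lay within 0.1 of Cd300a and 58 of Ptpn11. With 2 libraries such nearness states little beyond a like level.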

How the data were processed

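Nuclear RNA of 2 replicate libraries of 1 group was analysed. The authors' files for a library are gene and transcript tables in RSEM format, made from transcriptome alignments, and a transcript table in kallisto format, made from reads and called the second quantifier here, all on mm10 with GENCODE M21, per the deposited readme files. No aligner, tool version or strand setting is given in the sources used here. The authors' tables give, per the file headers, expected counts (fractional read assignments), TPM, a posterior mean TPM, the percent of each gene's TPM on each transcript, and interval bounds, handled as a deposited signal of unstated level.

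All 55536 gene rows were matched to M21 by gene ID, and 86 had no row in the second quantifier, which gave 31951500 and 27026810 counts. TMM normalisation of the rounded expected counts used edgeR 4.0.16 under R 4.3.3, with DESeq2 1.42.0 size factors as an alternative. A prior of 0.5 counts was added before the ratio between replicates. That prior was adopted after the data were seen, because it gave the same number of genes over 2-fold apart as an earlier analysis of these data, and the value without it is among the alternatives. The ratio is given as replicate 1 over replicate 2, the inverse of the direction first planned, which changes no count of genes over 2-fold apart. The remaining work was done in Python 3.11.15 with pandas 2.3.3, numpy 2.4.6, scipy 1.17.1 and matplotlib 3.10.9, and the ratio step was tested on simulated data. Shares of rounded counts have 95% Wilson intervals, which cover counting error alone, as no molecular identifiers are given. Log2 pair ratios used a pseudocount of 0.1 TPM.

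The members, the 18 lists and the 6 pairs were chosen with earlier results of these data known. Genes named are the 9 members, in each list the 4 of highest mean TPM and at most 3 that stayed under 0.1 TPM, and the gene nearest each member. One gene that this rule names is not reported here. Marker genes, Inppl1, the Sirpb1 genes and Rn7sk were named outside this rule after their values were seen. Motifs were searched in coding sequences, translated in frame, because reference proteins were not used here. The transcript groups within Ptpn6, Inpp5d, Sirpa and Cd47 were set after the transcripts were seen. Alternatives were the posterior mean, the second quantifier, other scalings, pseudocounts and floors, counts without length correction, and each library alone.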

Additional observations from a re-analysis of the deposited data

Results flagged for a closer look

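Signal appeared in genes that overlap members and were not among the genes described. Gm20531, annotated as antisense within Ptpn6, held 30.94 expected counts in replicate 1 and 15.99 in replicate 2. The Ptpn6 and Gm20531 counts were not whole, but their sums were, 2548 and 1002 (within 0.005), so the estimation divided reads between this pair. Gm42930, a transcript to be experimentally checked on the same strand within Ptpn11, held 131 and 173 expected counts, against 1514 and 966 for Ptpn11. Rab37, which spans Cd300lf on the opposite strand, held 11 and 3. In replicate 1 the Cd300a and Cd300c2 counts, and the Cd300lf and Cd300ld counts, were likewise whole only as sums, 3573 and 3878. Whether counting used strand is not given in the sources used here, so reads of a gene and an antisense partner may not be separable. No outlying library could be looked for with 2 in the group.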

How the results depend on the processing

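Of the counts that summarise each result, 27 alternatives gave values within 1.5 times the value reported and 3 did not. By the second quantifier all 8 neighbouring pairs in the order of levels were separated, against 4, and the order differed in that Ptpn6 stood above Cd300lf. On counts without length correction 5 pairs were separated, and the order after Clec12a was Inpp5d, Cd300lf, Cd300a, Ptpn6, Ptpn11 and Siglece, so Siglece was lowest in place of Ptpn11. On TPM without centring 1 member was over 2-fold apart between replicates, against 0. By expected counts 2 members had 10% or more on retained-intron transcripts in both libraries, against 4. Leaving out 1 replicate gave 8 to 9 members at 10 TPM, 6 of 8 neighbours in the same order both ways, 4 to 5 pairs with a log2 ratio of 1 or more in size, 4 to 5 members with a retained-intron share of 10% or more, and 83 to 88 pathway genes at 1 TPM. The log2 ratio of Inpp5d over Ptpn6 was -0.56 without replicate 2 and reversed to 0.36 without replicate 1, against a mean of -0.10; the cause was not tested. It was -0.96 by the posterior mean and -0.64 by the second quantifier, and Ptpn6 over Ptpn11 was 2.999 and 2.91, against 2.09. With no prior count and no rounding, an alternative added after the data were seen, 1259 genes (8.96%) were over 2-fold apart and still no member. With no filter beyond 1 count it was 4837 of 21869 (22.1%), by DESeq2 size factors 8.63% and by the second quantifier 11.8%, with no member among them. At a floor of 5 TPM 57 of 114 pathway genes passed and at 0.5 TPM 89. Levels depended on scaling: by the second quantifier Sirpa averaged 489 TPM and Cd47 65.5 TPM, and 8 of 9 members moved by more than 1 SD, while rescaling over nuclear protein-coding genes moved all 9. No paired analysis was possible because the series has 1 group. Depth limits the shares within Ptpn6, Siglece and Ptpn11, which rest on 467 to 2517 counts per library.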
